A study of Mus musculus with 6 samples.

Results

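Imprinted genes are read mainly from the copy inherited from 1 parent, and 35 of them were followed here among the 22320 genes of a testis expression table. They were taken by gene symbol, and all 35 symbols had a row. By textbook knowledge of the mouse, 23 are expressed from the paternal copy, 11 from the maternal copy, and for Gnas the copy depends on the transcript. The reads were not separated by parental copy, so the grouping is background and was not measured.

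The study compared messenger RNA of whole testes taken at postnatal day 1.5 from 2 groups of mice, Arid4bSCKO and control, each sampled as 3 pools of 4 testes. Arid4bSCKO mice had the genotype Arid4b-/Flox; Amh-cre and controls Arid4b+/Flox; Amh-cre, on a mixed C57BL6/J and 129/SvEv background. Both groups therefore carried the floxed allele and the Cre, which the Amh promoter drives in Sertoli cells, the somatic cells that enclose the germ cells. By these genotypes, Sertoli cells with the floxed allele cut keep 1 intact copy of Arid4b in controls and none in Arid4bSCKO mice. The null allele of the Arid4bSCKO mice is present in every cell, so cells other than Sertoli cells also differed in genotype. The deposited values are the authors' means per group of log2(normalized count + 1) with 1 p-value per gene, and levels in single pools were not analysed here. Whether each pool drew on its own litters is not stated in the labels. The p-values therefore rest on a spread among pools that may be technical.

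Imprints are marks of DNA methylation laid down at control regions in the parents' germ cells and kept in the body cells of the offspring. Male germ cells erase the inherited marks in the fetus and set paternal ones before and around birth, so a testis at this age holds germ cells in the course of re-marking and somatic cells with ordinary imprints. Imprinted genes lie in clusters that share a control region and include growth factors, their receptors, zinc finger proteins and long noncoding RNAs, many of them abundant in fetal tissue. ARID4B and its paralog ARID4A bind the retinoblastoma protein and the Sin3 corepressor. Both are known from mouse genetics to affect the control region of the Snrpn domain.

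The start regions below are shown because pairs of members share them, or because a neighbour reads from a region of its own. The RefSeq promoter table (GRCm38.p6) held windows of 300 bases for 29 of the 35 members, from 250 bases before to 50 bases after a start. Capitals mark CG, the dinucleotide that carries methylation. Peg3 and Usp29, both paternally expressed, start back to back on chromosome 7, and the 163 bases between the starts (chr7:6730420-6730582, written on the minus strand of Peg3) hold 5 CG. Zim1, the maternally expressed neighbour, has 14 CG in the 250 bases before its start (chr7:6696433-6696682, minus strand). Snurf and 1 of the 4 Snrpn starts have the same window, and the 250 bases before it (chr7:60005200-60005449, minus strand) hold 3 CG.
Peg3-Usp29: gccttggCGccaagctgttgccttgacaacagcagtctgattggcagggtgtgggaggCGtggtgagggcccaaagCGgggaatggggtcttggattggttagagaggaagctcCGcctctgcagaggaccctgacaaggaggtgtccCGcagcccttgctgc
Zim1: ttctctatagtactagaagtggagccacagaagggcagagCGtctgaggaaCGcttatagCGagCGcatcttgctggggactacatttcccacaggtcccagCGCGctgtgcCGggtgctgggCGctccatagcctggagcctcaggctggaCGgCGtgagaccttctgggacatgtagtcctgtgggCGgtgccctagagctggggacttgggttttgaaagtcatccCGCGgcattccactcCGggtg
Snurf-Snrpn: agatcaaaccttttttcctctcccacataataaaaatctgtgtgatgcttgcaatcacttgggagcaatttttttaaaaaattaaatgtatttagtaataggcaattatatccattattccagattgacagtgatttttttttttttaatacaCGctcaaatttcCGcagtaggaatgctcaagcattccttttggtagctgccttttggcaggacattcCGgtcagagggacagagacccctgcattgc
In the full windows of 300 bases the median of all 32851 windows was 7 CG. The Zim1 window held 20, more than 73.5% of windows, the Peg3 window 13 and the Snurf window 7. These counts describe the sequence only, since methylation was not measured.

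Most imprinted genes did not pass a test for a difference between the genotypes. Of the 35, 34 reached a mean log2 level of 1 and were tested, 16 with a lower and 18 with a higher mean in Arid4bSCKO (54.2% of all genes had a lower mean), and their median difference was 0.01 log2 against -0.04 over all 19095 genes tested. A moderated limma test, with p-values adjusted over all genes tested, called 4 members at an adjusted p below 0.05, all lower: Peg10, Ube3a, Slc38a4 and Zim1. That is 11.8% of the tested members, where 13.8% of all genes were called in either direction, 6.46% as lower and 7.37% as higher. The share called is near that of the whole table, and no result about the set as a whole is read from it. By the FDR of the authors' deposited table, with a threshold of 0.05, 0 of the 35 and 0.26% of all genes passed, and 7 members had an unadjusted p below 0.05, all lower, where 12.7% of the tested genes had such a p and were lower, 11.4% higher and 24.1% either. For 21 of the 34 the 95% interval excluded a change of 1.5-fold in either direction, as it did for 41.2% of all genes tested. These 21 include 4 of the 7 members with an unadjusted p below 0.05, and the remaining intervals did not exclude such a change. The shares are not matched for level, since the median level was 9.88 for the members and 8.41 over all genes tested.

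**Figure D1:**
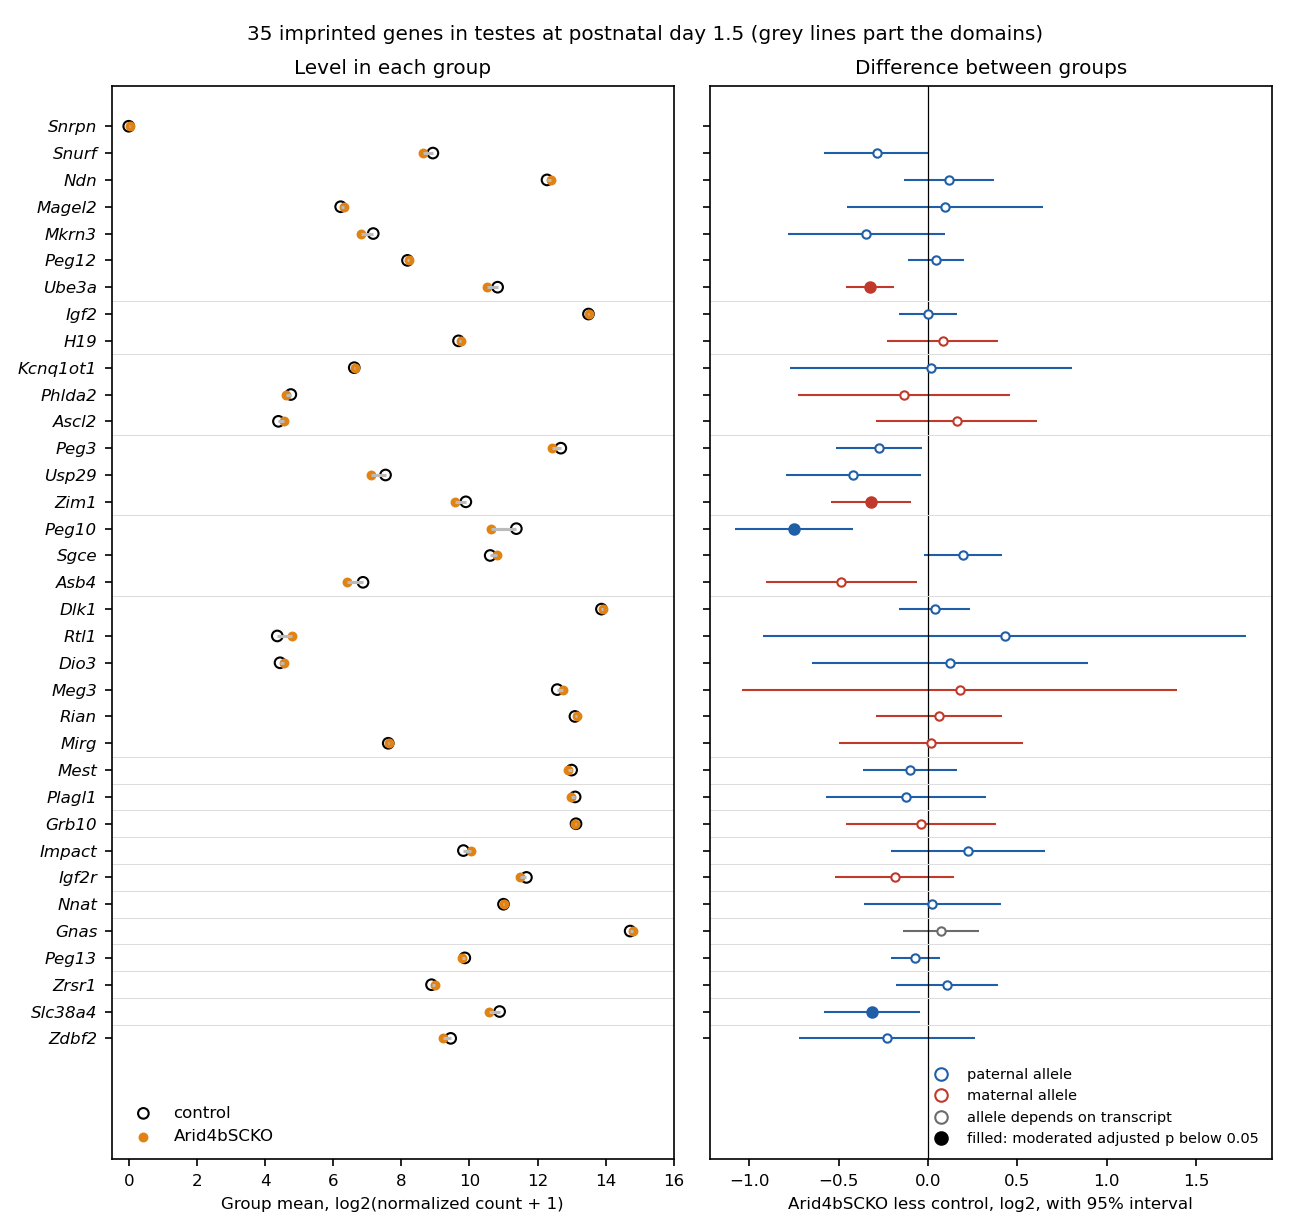
The left panel plots the authors' mean level of each of the 35 genes in control (open circles) and Arid4bSCKO (orange), and the right panel the difference with its 95% interval for the 34 tested, in log2 units. Filled points are the 4 genes called by the moderated test, all below 0, and Peg10 at -0.75 lies farthest from 0.

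Arid4b itself, the targeted gene, was checked first. It differed by -1.51 log2 (95% interval -1.82 to -1.21), from a mean of 10.19 in control to 8.68 in Arid4bSCKO, with a moderated adjusted p of 2.23e-05 and, in the authors' deposited table, an FDR of 0.0535. Arid4a, at 8.82 and 8.68, differed by -0.15 (-0.46 to 0.17). The RNA comes from all cells of the testis, and fewer cells of a type cannot be told apart from less RNA per cell.

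The Peg10 gene showed the largest difference among the tested members, and it fell. Peg10 (chromosome 6, 4747306 to 4760516, mm10), a paternally expressed gene derived from a retrotransposon and needed in the placenta, had a mean of 11.38 in control and 10.63 in Arid4bSCKO. The difference of -0.75 (95% interval -1.08 to -0.42) put it at 59.5% of control, with a moderated adjusted p of 0.00115 and, in the authors' deposited table, an FDR of 0.102. Sgce, which encodes epsilon-sarcoglycan, is expressed from the same paternal copy and starts 101 bases away in the opposite direction. Its means were 10.61 and 10.80, a difference of 0.20 (-0.02 to 0.42) that was not called. The intervals of these divergent neighbours did not overlap, but the difference between them was not tested because levels per pool were not analysed. Asb4, an ankyrin repeat gene of the maternal copy in the same cluster, had means of 6.88 and 6.39 and differed by -0.48 (-0.91 to -0.06), with an unadjusted p of 0.0335 and a moderated adjusted p of 0.121.

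Other imprinted genes of this chromosome 6 cluster lay on both sides of 0. All rows of the table from Calcr to Asb4 were read, a span of 1747 kb with 14 rows, of which 12 were tested, 4 called lower and 1 higher, where 6.46% of all genes were called lower and 7.37% higher. Calcr, the calcitonin receptor gene at the far end, fell by 1.80 log2 (95% interval -2.57 to -1.04) from a low mean of 3.25. Casd1, a sialic acid acetyltransferase gene, fell by 0.43 (-0.63 to -0.24), and Ppp1r9a, which encodes the actin-binding protein neurabin, fell by 0.47 (-0.75 to -0.19). Pon2, a paraoxonase gene between Ppp1r9a and Asb4, rose by 0.53 (0.04 to 1.02). All 4 of these are known as maternally expressed in some tissues. The span was chosen after the values of its members had been seen.

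**Figure D2:**
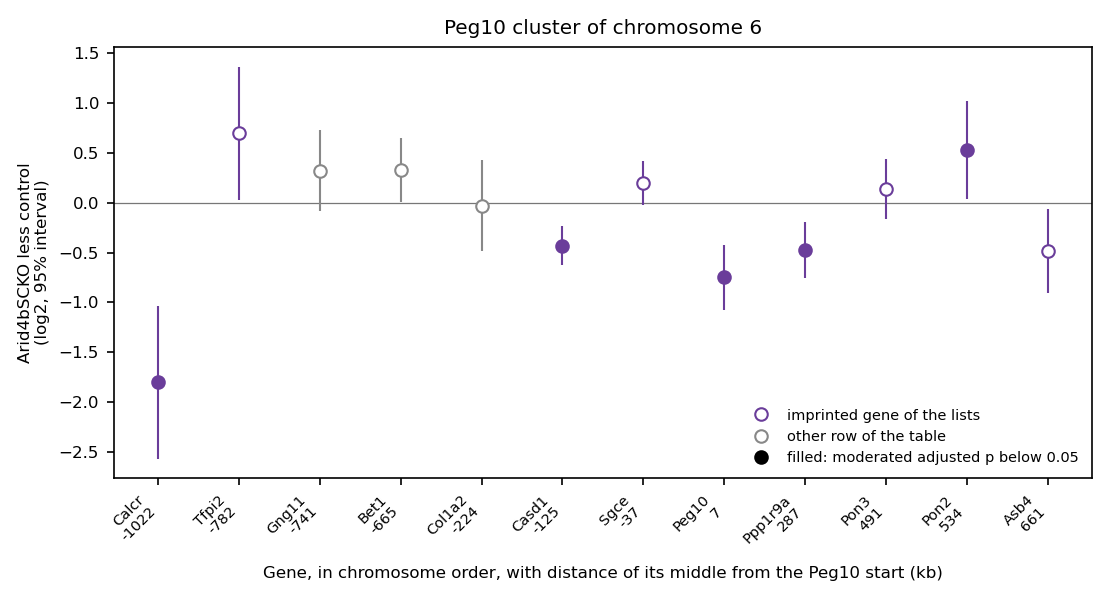
Each point is 1 of the 12 tested genes from Calcr to Asb4 in chromosome order, with the difference between groups (log2) and its 95% interval, and the number under each name is the distance of its middle from the Peg10 start in kb. Filled points passed the moderated test: Calcr, Casd1, Peg10 and Ppp1r9a below 0 and Pon2 above it.

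All 3 members of the Peg3 domain had lower means in Arid4bSCKO, and 1 of them was called. Over all genes tested 54.2% had a lower mean and 6.46% were called lower. Zim1 (chromosome 7, 6675443 to 6696432), a zinc finger gene of the maternal copy, had means of 9.89 and 9.58 and fell by 0.32 log2 (95% interval -0.54 to -0.09), with a moderated adjusted p of 0.0488. The call was lost with no minimum level (adjusted p = 0.0574) and when centred on the median of all genes (0.0744) or on level (0.0541). Peg3, a Krüppel-type zinc finger gene of the paternal copy, stood at 12.68 and 12.41, a difference of -0.27 (-0.51 to -0.03) at an adjusted p of 0.0638. Centred on level, where Zim1 was not called, Peg3 was called instead (-0.30, adjusted p = 0.0453). Usp29, a gene of the ubiquitin-specific peptidase family that shares the start region printed above with Peg3, stood at 7.54 and 7.12, a difference of -0.42 (-0.80 to -0.04) at an adjusted p of 0.117. The 3 genes lay at 80.2%, 82.8% and 74.9% of control. Neighbours with 1 control region are not independent observations.

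In the Snrpn domain, the chromosome 7 region of the Prader-Willi and Angelman syndromes, 1 of 6 tested genes was called. Over all genes tested 6.46% were called lower and 7.37% higher. Ube3a, the ubiquitin ligase gene of Angelman syndrome (chromosome 7, 59228750 to 59306727), fell by 0.32 log2 (95% interval -0.46 to -0.19), from 10.83 to 10.50, or 79.9% of control, at a moderated adjusted p of 0.0217. Its maternal expression is known from neurons, and in other tissues both copies are read. The paternally expressed genes were on both sides of 0. Ndn, which encodes the MAGE family protein necdin, was the most abundant of them at 12.28 in control and 12.39 in Arid4bSCKO, a difference of 0.12 (-0.13 to 0.37). Magel2, another MAGE family gene, was at 0.09 (-0.45 to 0.64), and Peg12, a relative of the GSK3-binding Frat proteins, at 0.05 (-0.11 to 0.20). Mkrn3, a RING finger gene known as a brake on puberty, had means of 7.18 and 6.83 and differed by -0.34 (-0.78 to 0.10).

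The Snrpn row itself held no usable value. Snrpn and Snurf are known to be encoded on 1 bicistronic mRNA, and their spans overlap in the table. Snurf was at 8.93 in control and 8.64 in Arid4bSCKO, whereas Snrpn was listed at 0 in control and at 0.03 in Arid4bSCKO, the value that 0.1 log2 in 1 of 3 libraries would give. That value was read as filled in, so Snrpn was left out of the tests. The Snurf row differed by -0.29 (95% interval -0.58 to 0.01), with a moderated adjusted p of 0.132. Another unnamed transcript model over the Snrpn span had a difference of -0.63 (-1.33 to 0.06). Which of these rows received the reads of the shared mRNA depends on the counting, which the sources used here do not give.

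Neither gene of the Igf2-H19 domain was called. Igf2, the paternally expressed fetal growth factor, had means of 13.49 in both groups and the smallest difference of all tested members, 0.00 log2 with a 95% interval of -0.16 to 0.16. H19, the maternally expressed noncoding RNA that shares the Igf2 control region, was at 9.68 in control and 9.76 in Arid4bSCKO, a difference of 0.08 (-0.23 to 0.39). An unnamed transcript model over the H19 span stood much higher, at 14.76 and 14.85, with a difference of 0.09 (-0.03 to 0.21), so the H19 row may hold only part of the reads from that locus. The ratio of Igf2 to H19 was not tested.

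Igf2r, Grb10, Plagl1 and Mest were likewise not called. Igf2r, the maternally expressed receptor that clears IGF2, was at 11.67 in control and 11.49 in Arid4bSCKO, a difference of -0.18 (95% interval -0.52 to 0.15). Airn, the paternal noncoding RNA that silences Igf2r on that copy, overlaps it in the table and was at 0.01 (-0.45 to 0.48). Grb10, an adaptor that dampens insulin and IGF receptors, was at 13.13 and 13.09, a difference of -0.04 (-0.46 to 0.38). Plagl1, a zinc finger gene also called Zac1 that acts on other imprinted genes, was at 13.10 and 12.98, a difference of -0.12 (-0.57 to 0.33). Mest, a paternally expressed gene of the hydrolase family, was at 12.90 in Arid4bSCKO, a difference of -0.10 (-0.37 to 0.16). Copg2, the maternally expressed gene that overlaps the end of Mest, was at -0.23 (-0.35 to -0.10) with a moderated adjusted p of 0.08.

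The 3 members of the Kcnq1ot1 domain were measured at low levels. Kcnq1ot1, a long noncoding RNA of the paternal copy that silences its neighbours, was at 6.62 in control and 6.63 in Arid4bSCKO, with a difference of 0.02 log2 and an interval of -0.77 to 0.81. Kcnq1, which it overlaps on the other strand, was at 3.79 and 2.81, a difference of -0.99 (-2.30 to 0.32). Without knowing whether strand was used in the counting, reads of these partners cannot be told apart. Phlda2, a growth-restraining gene of the placenta, was at -0.13 (-0.72 to 0.46) and the transcription factor gene Ascl2 at 0.16 (-0.29 to 0.61), both at levels under 5. Cdkn1c, the cell cycle inhibitor of the same cluster, was better measured at 10.13 and 10.41, a difference of 0.29 (-0.02 to 0.59) that was not called (adjusted p = 0.082). Nearby imprinted genes of a further list were also well measured, at 13.09 (Cd81), 12.25 (Nap1l4), 10.31 (Osbpl5) and 9.50 (Tssc4) in control. They differed by -0.01 (-0.08 to 0.05), -0.05 (-0.16 to 0.05), -0.16 (-0.38 to 0.06) and 0.33 (0.06 to 0.60), and none was called.

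All 6 genes of the Dlk1-Dio3 domain on chromosome 12 had higher means in Arid4bSCKO, and none was called (0 of 6). At an unadjusted p below 0.05 the count was also 0. Over all genes tested 54.2% had a lower mean, 13.8% were called and 24.1% had such an unadjusted p. Dlk1, a paternally expressed transmembrane relative of the Notch ligands, was the most abundant at 13.87 in control and 13.91 in Arid4bSCKO, a difference of 0.04 (95% interval -0.16 to 0.24). The maternally expressed noncoding RNAs followed, with Rian, a host of small nucleolar RNAs, at 0.06 (-0.29 to 0.42) and Mirg, a host of microRNAs, at 0.02 (-0.50 to 0.53). Meg3, the noncoding RNA at the head of that series, was at 12.58 and 12.75, a difference of 0.18 with a wide interval of -1.04 to 1.39. Rtl1, like Peg10 derived from a retrotransposon, was at 0.43 (-0.92 to 1.78), and Dio3, which encodes the enzyme that inactivates thyroid hormone, at 0.12 (-0.65 to 0.90). Both of these were low, under 5 in either group. Centring the differences on a trend over level put Dlk1 at -0.02, and centring on transcript length put Mirg at -0.06.

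Meg3 had the largest spread between pools of the tested members at a control level of 9 or more. The SD between pools that its p-value implies was 0.54 log2, against a median of 0.10 for the 1000 genes nearest to it in level. Some other abundant genes spread as widely, such as the Sertoli cell gene Amh at 0.66 and the globin gene Hba-a2 at 0.70. In the authors' deposited table the log2 ratio of the group medians was 0.56 for Meg3. The difference of its log2 means was 0.18, so pools within a group were not evenly placed around their mean. Rtl1 showed the same discord, with -0.07 for the medians in the authors' deposited table and 0.43 for the means. Neighbouring Rian, at a similar level to Meg3, had an SD of 0.16 and Dlk1 an SD of 0.09. Of 21 tested members with a control level of 9 or more, 14 had an SD above the median of genes of like level, with Plagl1 at 0.20, Grb10 at 0.19 and Impact at 0.19 against 0.11 in each case. Which pools were high or low was not analysed here.

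**Figure D3:**
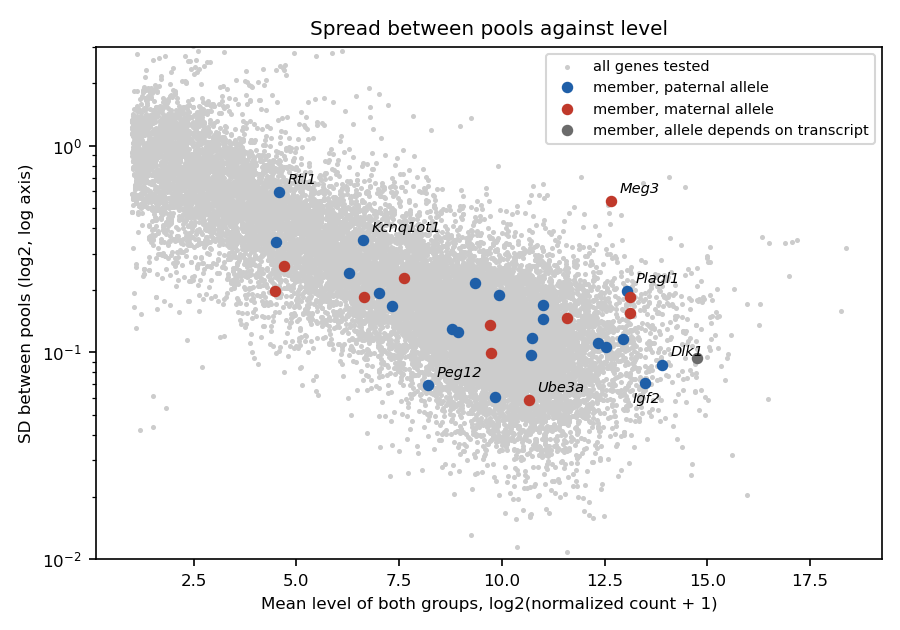
The SD between pools (log2, log axis) is plotted against the mean level for all 19095 genes tested (grey) and the 34 imprinted genes (colours by expressed copy). Meg3 at 0.54 lies above the median of 0.10 for genes of like level, while Igf2, Dlk1, Ube3a and Peg12 lie at 0.09 or below.

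Among the members outside the large clusters, 1 was called, where 6.46% of all genes tested were called lower and 7.37% higher. Slc38a4, an amino acid transporter gene of the paternal copy (chromosome 15, 96994823 to 97055956), fell by 0.31 log2 (95% interval -0.58 to -0.05), from 10.89 to 10.57, or 80.5% of control, at a moderated adjusted p of 0.0469. Its call was lost under the same alternatives as that of Zim1, with adjusted p of 0.0534, 0.0726 and 0.0503. Gnas, the gene of the stimulatory G protein subunit, was the most abundant member at 14.72 in control and 14.79 in Arid4bSCKO, a difference of 0.07 (-0.14 to 0.28). Nnat, a small membrane proteolipid gene, was at 0.02 (-0.36 to 0.41) and Impact, a regulator of the kinase GCN2, at 0.23 (-0.20 to 0.66). Zdbf2, a zinc finger gene, was at -0.23 (-0.72 to 0.26). Zrsr1, a retrogene within an intron of Commd1, was at 0.11 (-0.18 to 0.39), and the noncoding Peg13 within Trappc9 at -0.07 (-0.21 to 0.07). In all, 17 of the 35 members had another row of the table over their span, so reads may have been split or shared at these loci.

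Set per length of transcript, imprinted genes ranged from among the most to among the least abundant of this testis. On the scale of log2(normalized counts per kb), averaged levels of Gnas exceeded 99.0% of the tested genes, those of Dlk1 97.5%, Mest 97.2% and Igf2 96.5%. Grb10, Nnat, Plagl1, Ndn and Rian lay between 90.95% and 94.7%. The length matched to Ndn, 3.69 kb, exceeds the span of its row (62348277 to 62349927), and a length within that span would place Ndn higher. At the other end were Kcnq1ot1, above 3.97% of genes with its very long transcript, Rtl1 above 12.5%, Dio3 above 21.4% and Ascl2 above 23.4%. Peg10 was in between, at 8.64 in control and 7.89 in Arid4bSCKO on this scale.

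Paternally and maternally expressed genes were set side by side. Of 22 tested paternal genes 10 had a lower and 12 a higher mean, 2 were called lower (Peg10 and Slc38a4), and the median difference was 0.01 log2. Of 11 maternal genes 6 had a lower and 5 a higher mean, 2 were called lower (Ube3a and Zim1), and the median was -0.04, the same as over all genes tested. The medians lay 0.05 apart. The calls were 9.09% of the paternal and 18.2% of the maternal genes, where 6.46% of all genes were called lower and 13.8% in either direction. With a trend over transcript length removed, 1 paternal gene (Peg10) and 0 maternal genes were called. No difference between the 2 sets is read from these counts. The order of the medians turned with the authors' deposited log2 ratios of group medians (-0.07 paternal and 0.02 maternal). It also turned without Ube3a, Grb10 and Gnas (0.01 and 0.02), and after centring on a trend over level (-0.036 and -0.0041). No test was run over the members, which were chosen with earlier results known and share control regions.

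**Figure D4:**
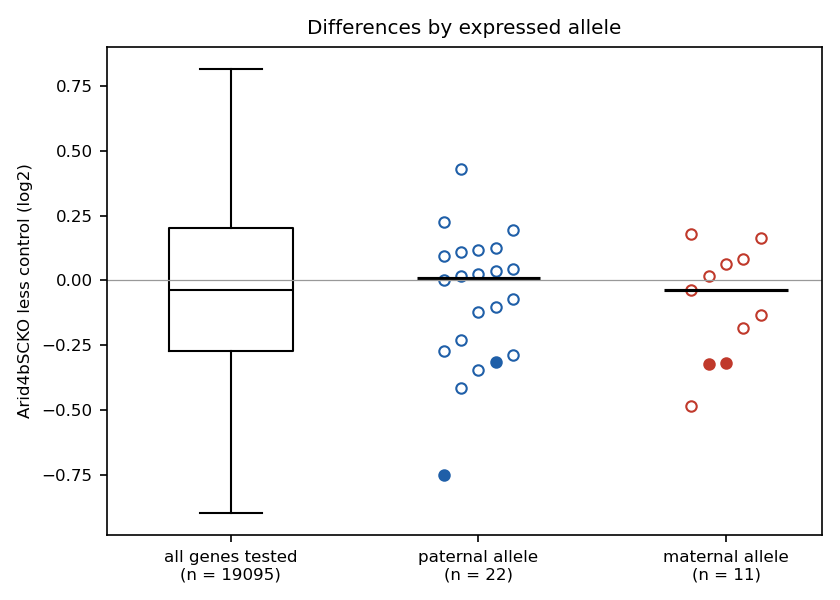
Differences between groups (log2) are shown for all 19095 genes tested (box for the quartiles, whiskers for the 5th to the 95th percentile), 22 paternally expressed and 11 maternally expressed genes, with a bar at each median. Filled points are the called genes, and both sets spread around 0.

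Across the whole table, differences were more negative for longer transcripts, and of the 4 called imprinted genes all but Slc38a4 have transcripts above 6 kb. Over 17757 genes with a matched length the rank correlation of difference and transcript length was -0.21, and over the 34 members it was -0.23, as a description with no test. The median difference of all tested genes went from 0.15 log2 for transcripts up to 1 kb to -0.14 for those of 6 to 8 kb and -0.17 above 8 kb. Among members above 6 kb, 11 in number, the median was -0.23 and 27.3% were called lower, where 12.9% of all genes of 6 to 8 kb and 15.1% of those above 8 kb were. Peg10 has a transcript of 6.67 kb, Zim1 7.69 kb, Peg3 8.69 kb, Usp29 7.54 kb and Ube3a 9.86 kb, while those of Slc38a4 at 3.93 kb and Asb4 at 3.29 kb are shorter. With the trend over length removed, Peg10 was at -0.61 (adjusted p = 0.00296) and was the single member still called, where 2316 of 17757 genes (13%) were called, 4.49% as lower. Ube3a was then at -0.16 (adjusted p = 0.224), Zim1 at -0.17 (0.279), Slc38a4 at -0.23 (0.139) and Peg3 at -0.12 (0.433). Asb4, not called in either fit, went from -0.48 to -0.43. The part of RNA quality or library preparation in this trend was not tested.

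**Figure D5:**
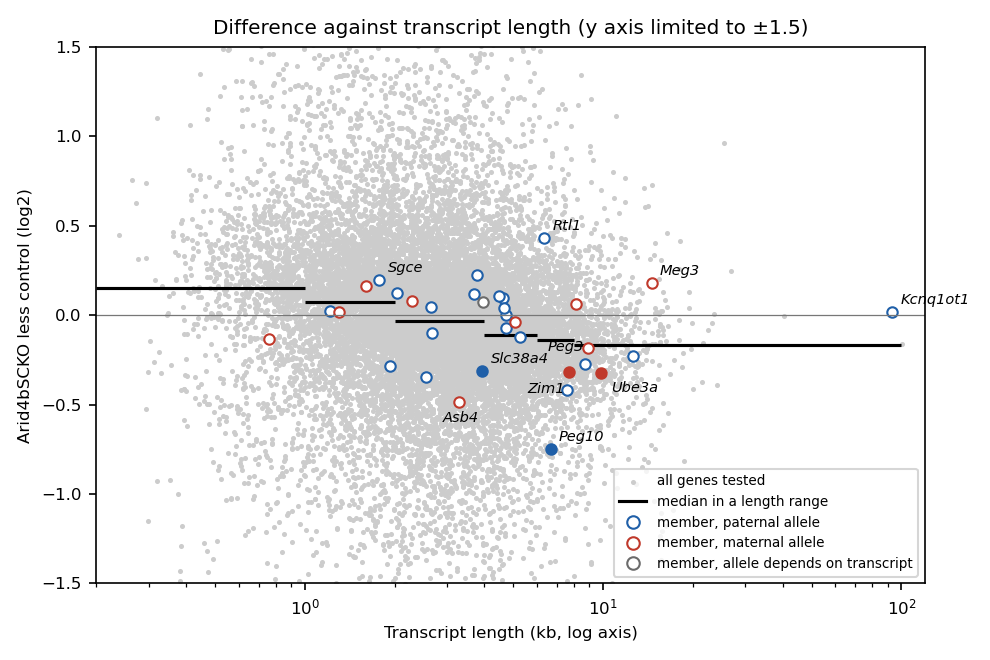
The difference between groups (log2) is plotted against transcript length (kb, log axis) for all genes with a length (grey) and the 34 tested imprinted genes, with black bars at the median of all genes in each range of length. The medians step down from 0.15 to -0.17 with length, and Peg10 at -0.75 lies below the bar of its range at -0.14.

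The calls also rested on how the spread was modelled. When the moderated test was run without its trend of the spread on level and without robust fitting, 0 of the 34 members were called, where 237 of 19095 genes were, and Peg10 had an adjusted p of 0.0575.

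Imprinted genes beyond the 35 were read from a second list, of which 42 symbols were in the table and 41 were tested. Of these, 9 were called lower and 1 higher, or 24.4% where 13.8% of all genes were called, with a median difference of -0.03. The lower calls were 22% of the list, against 6.46% of all genes. This list was chosen with earlier results of these data known, so no excess over all genes is read from it. When the spread was not modelled on level the 10 calls became 1, or 0 with robust fitting. By expressed copy, 4 of 7 paternal and 5 of 30 maternal genes were called lower. Besides the chromosome 6 genes above, Gatm, which makes the precursor of creatine, fell by 0.81 log2 (95% interval -1.40 to -0.23) from a high level of 13.56. Nap1l5, of the nucleosome assembly protein family, fell by 1.06 (-2.02 to -0.10), Rasgrf1, a Ras exchange factor with a paternally methylated control region, fell by 0.76 (-1.16 to -0.36), and Sfmbt2, a Polycomb-group gene, fell by 0.75 (-1.51 to 0.01). Cobl, an actin nucleator gene, fell by 0.58 (-0.86 to -0.30) and Bcl2l1, the gene of the survival factor BCL-XL, fell by 0.37 (-0.62 to -0.13). The call of Nap1l5 (adjusted p = 0.0477) was lost without robust fitting (0.0552), with no minimum level (0.0527), and when centred on the median (0.0546) or on level (0.0704). That of Rasgrf1 was lost when centred on level (0.0621), as was that of Calcr (0.0613). Several of these are known as imprinted mainly in the placenta or brain. With the length trend removed 6 of the 41 were called, with Casd1, Gatm, Nap1l5 and Bcl2l1 lower and Pon2 and H13 higher, where 2316 of 17757 genes were. Calcr, Ppp1r9a, Cobl, Rasgrf1 and Sfmbt2 were then not called.

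Genes that set, read or protect imprints mostly had lower means, some of them by very little. Of 27, Arid4b and Arid4a included, 25 had a lower mean, where 54.2% of all genes did. Among the 25, Eed at -0.002 log2, Mbd3 at -0.02 and Yy1 at -0.05 hardly differed. In all 8 were called, all lower, or 29.6% where 6.46% of all genes were called lower. The list was chosen with earlier results of these data known, so no excess over all genes is read from it. Without Arid4b, the targeted gene, 7 of 26 were called (26.9%). When the spread was not modelled on level, the 8 calls became 1. Ctcf, whose protein binds the control region between Igf2 and H19, fell by 0.40 log2 (95% interval -0.59 to -0.20). Uhrf1, which brings DNMT1 to newly copied DNA, fell by 0.51 (-0.89 to -0.13), and Tet1, an oxidase of methylated cytosine, fell by 0.54 (-0.91 to -0.18). Dnmt3l, the cofactor that directs new methylation in male germ cells, fell by 1.29 (-2.52 to -0.06), to 41.0% of control. Trim28, the corepressor that holds imprints through ZFP57, fell by 0.33 (-0.58 to -0.08), and the histone methyltransferase genes Suv39h1 and Setdb1 fell by 0.31 (-0.55 to -0.07) and 0.28 (-0.48 to -0.07). The call of Setdb1 was lost with no minimum level (adjusted p = 0.0575) and when centred on the median (0.0800), and that of Suv39h1 when centred on the median (0.0672). Zfp57 itself was at 0.22 (-0.61 to 1.05), Dnmt1 at -0.31 (-0.70 to 0.08) and Dnmt3a at -0.33 (-0.68 to 0.02), none of them called. With the length trend removed 4 of the 27 were called, Arid4b, Ctcf, Uhrf1 and Dnmt3l, where 4.49% of all genes were called lower and 13% in either direction. Of the 25 with a lower mean, Zfp445 (0.05), Tet2 (0.10), Tet3 (0.03) and Yy1 (0.08) were then above 0 and the rest below.

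Markers of testis cell types differed beside these genes. For each list the counts stand against 6.46% of all genes called lower and 7.37% called higher. Summed levels are given in normalized counts, worked back from the authors' log2 group means. Sertoli cell markers had 6 of 12 called lower and 0 higher, and their summed level was 42086 in Arid4bSCKO and 75951 in control. Germ cell markers had 1 of 12 called lower (Dppa4), with sums of 8693 and 11480. Their median difference was -0.42 log2, against -0.04 over all genes tested, and only Pou5f1, Nanos3 and Tex101 had higher means. Macrophage markers had 9 of 9 called higher, with sums of 4210 and 2188. The markers listed for fetal Leydig cells, with Pdgfra and Hsd3b6 among them, had 0 of 9 called and sums of 61891 and 66283. Stromal and myoid markers had 1 of 10 called lower and 2 higher, with sums of 170220 and 161340. Endothelial markers had 0 of 7 called, with sums of 7263 and 8487, and erythroid markers 0 of 7, with sums of 54395 and 35720. Across these lists 0 markers with a row were listed at 0 in control. The Sertoli and germ cell markers were also above 0 in Arid4bSCKO. The lowest of them, Nanos2, was at 3.22 in control and 2.82 in Arid4bSCKO, so RNA of both lists was read in both groups. The part of these cell types in the lower Peg10, Ube3a, Slc38a4, Zim1 and imprint regulator genes was not tested.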

How the data were processed

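Libraries came from 3 pools per group of testes. Per the labels' protocols, poly(A) RNA was made into stranded libraries and read from both ends for 50 bases. STAR 2.4 and mm10 are listed in the submitters' processing notes. The counter, its use of strand and the way of normalizing: not given in the sources used here. Per the deposited column descriptions, the authors' table of 22320 genes holds group means of log2 normalized counts, a log2 ratio of group medians, an unadjusted p-value from a test that assumes equal variance, and a Benjamini-Hochberg FDR. The deposited p-values gave back the FDR to a relative difference of 4.78e-05. No value per library was used. Depth, read from genes seen in 1 library, was about 17.5 M reads per Arid4bSCKO and 18.6 M per control library.

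Differences are Arid4bSCKO minus control group means. The 95% interval and the SD between pools were worked back from the p-value with 4 degrees of freedom. Variances of the 19095 genes at a mean level of 1 or more were shrunk with limma 3.58.1 (squeezeVar, trend on level, robust) in R 4.3.3. In 529 rows the value was read as filled in (control 0, 0.1 log2 in 1 library), and they were left out. On simulated data of 18660 genes with 200 changed, this test recovered 75% of changes of 1 log2 and 100% of changes of 2 log2. Of its calls there, 5.91% were false. The simulation used an assumed spread between pools and no trend over transcript length, and it held no change smaller than 1 log2. Its rates therefore do not carry over to the called members, whose differences were all smaller than that. Lengths are those of the longest GENCODE M21 transcript matched by RefSeq accession or symbol. Starts are printed 1 above the file's, since 9940 of 18885 then equal RefSeq's and 709 otherwise. The text names all 35 members, Arid4b, Arid4a, and the called genes of 2 further lists, others as context after their values were seen. The members and lists were chosen with earlier results of these data known.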

Additional observations from a re-analysis of the deposited data

How the results depend on the processing

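Of the comparisons of 1 gene under 1 alternative, 423 in all for the 34 tested members, Arid4b, Arid4a and the called genes of the other lists, 347 kept both direction and side of the threshold. Most of these genes were not called as reported and counted as kept when they stayed uncalled. Among the called genes, 20 lost the call with neither trend nor robust fitting, 21 with robust fitting alone and 12 when centred on length. The members called, 4 as reported, were 0 when the spread was not modelled on level, with or without robust fitting, 2 with no minimum level, 2 when centred on the median and 1 when centred on transcript length. For the other imprinted genes, 10 as reported, the counts were 1 with neither trend nor robust fitting, 0 with robust fitting alone and 6 when centred on length. For the imprint regulators, 8 as reported, they were 1, 1 and 4. Over all genes, 2641 calls became 237 with neither and 135 with robust fitting alone. By the authors' FDR 0 members were called, against 7 at an unadjusted p below 0.05. Differences near 0 changed sign for Igf2 (-0.048), Dlk1 (-0.024) and Gnas (-0.018) when centred on level, and for Mirg (-0.060), Grb10 (0.078), Nnat (-0.063) and Peg13 (0.038) when centred on length. The cause was not tested. No paired analysis was possible because the columns used carry group means, not replicate numbers, and for the same reason no replicate was left out. Low genes such as Rtl1, Dio3, Ascl2 and Phlda2 carry counting noise that limits what can be seen.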
